A study of Mus musculus with 23 samples.

Results

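The prostaglandin and leukotriene pathway turns arachidonate of the membrane into lipid mediators, and the 10 genes described here are 10 of the 26014 genes measured. They are Pla2g4a for release of arachidonate, Ptgs1, Ptgs2, Ptges and Tbxas1 for prostanoid synthesis, Ptger2, Ptger4 and Ptgir as prostanoid receptors, and Alox5 and Alox5ap for leukotriene synthesis. Their probes were found by matching the RefSeq or GenBank accession of each probe to the listed genes. The study compared bone marrow-derived macrophages (BMDM) of wild-type (wt), MK2-/- and MK2/3-/- mice on Agilent arrays, in medium or after 120 min with 100 ng/ml LPS. The labels give male C57BL/6 mice aged 10 to 14 weeks, and the study's methods give C57BL/6J as background of the deficient animals. The bone marrow cells of the mice had been cultured for 9 days with 10 ng/ml M-CSF. The study's methods give a switch to medium without M-CSF shortly before the experiments. Each group held 4 arrays, except MK2-/- BMDM in medium with 3, so that 23 arrays were available.

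Cytosolic phospholipase A2, encoded by Pla2g4a, frees arachidonate, and the cyclooxygenases encoded by Ptgs1 and Ptgs2 convert it to prostaglandin H2. The synthases encoded by Ptges and Tbxas1 make prostaglandin E2 and thromboxane A2 from it. Ptger2 and Ptger4 encode receptors for prostaglandin E2 and Ptgir the receptor for prostacyclin, while 5-lipoxygenase (Alox5) and its activating protein (Alox5ap) start leukotriene synthesis.

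The targeted genes were lower in the knockout cells. Mapkapk2, which encodes MK2, had log2 signals of 12.46, 12.64, 11.49 and 12.28 in wt BMDM in medium and of 9.07, 8.73 and 8.94 in MK2-/- BMDM, without overlap. In medium it was lower by 3.31 for MK2-/- (limma, adjusted p = 5.75e-06, 3 of 3 arrays, and 0.203 with only the groups compared in the fit) and by 3.50 for MK2/3-/- BMDM (adjusted p = 2.98e-07, 4 of 4 arrays). After LPS it was lower by 2.81 for MK2-/- (limma, adjusted p = 2.41e-05, 4 of 4 arrays, and 0.0738 with only the groups compared in the fit). For MK2/3-/- BMDM after LPS it was lower by 3.01 (limma, adjusted p = 2.60e-06, 4 of 4 arrays). For MK2/3-/- BMDM, Mapkapk3 was also lower than for wt, 3.08-fold in medium (limma, adjusted p = 5.74e-05) and 9.88-fold after LPS (adjusted p = 1.14e-09), and each time 4 of 4 arrays were dimmer than every wt array. In MK2-/- BMDM the Mapkapk3 difference to wt was 0.24 in medium (limma, adjusted p = 1.00, 3 of 3 arrays above the wt mean).

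The marker genes fixed beforehand showed macrophages. Of 9 macrophage markers 8 were measured, and all 8 were well above background on all 23 arrays, with Csf1r the brightest at a mean log2 signal of 18.52. Markers of other cells were in part above background. On 0 arrays were 2 of 5 mast cell markers (Fcer1a and Ms4a2), 1 of 3 eosinophil markers (Epx), 1 of 4 platelet markers (Gp9) and 1 of 4 T cell markers (Cd8a) above background, while Siglecf, Ppbp and Cd3e from the last 3 lists were above it on all 23, Cd3e with a mean of 10.04 in wt in medium. Elane and Camp of the neutrophil, Itgax and Flt3 of the dendritic cell and Kdr and Pecam1 of the endothelial list were also above background on all 23 arrays. The stroma marker Col1a1 was above background on 23 arrays, with means in medium of 12.33, 9.61 and 10.20 for wt, MK2-/- and MK2/3-/- BMDM. Whether these stromal transcripts bear on any genotype difference below was not tested.

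LPS raised Ptgs2 and, on 1 of its 2 probes, Ptges in every genotype, while Ptger2 passed in wt and Ptger4 in wt and MK2/3-/- BMDM. In wt BMDM, 4 of the 10 genes rose (Ptgs2, Ptges on 1 of its 2 probes, Ptger2 and Ptger4) and 0 fell, while 17.1% of all genes passed the same limma test. In MK2-/- BMDM 2 rose (Ptgs2 and Ptges, 18.6% of all genes), and in MK2/3-/- BMDM 3 rose (Ptgs2, Ptges and Ptger4, 24.9% of all genes). These percentages count genes that passed in either direction, and the shares in the knockout cells were near them. Of all genes, 8.26%, 8.48% and 11.9% passed as higher after LPS in wt, MK2-/- and MK2/3-/- BMDM. At an unadjusted p below 0.05 the counts were 7, 5 and 5, against 26.8%, 28.9% and 34.5% of all genes. Medium and LPS arrays were paired as 1 culture by replicate number and age, and with the culture as a block the counts were 5, 4 and 5, while 22%, 23.7% and 30.9% of all genes passed. The median difference of the 10 genes was 0.79, 0.75 and 0.56 in the 3 genotypes, against 0.01, -0.01 and -0.02 for all genes. On every slide the medium arrays lay in the first row of positions and the LPS arrays in the second, so that array position and treatment cannot be told apart.

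**Figure D1:**
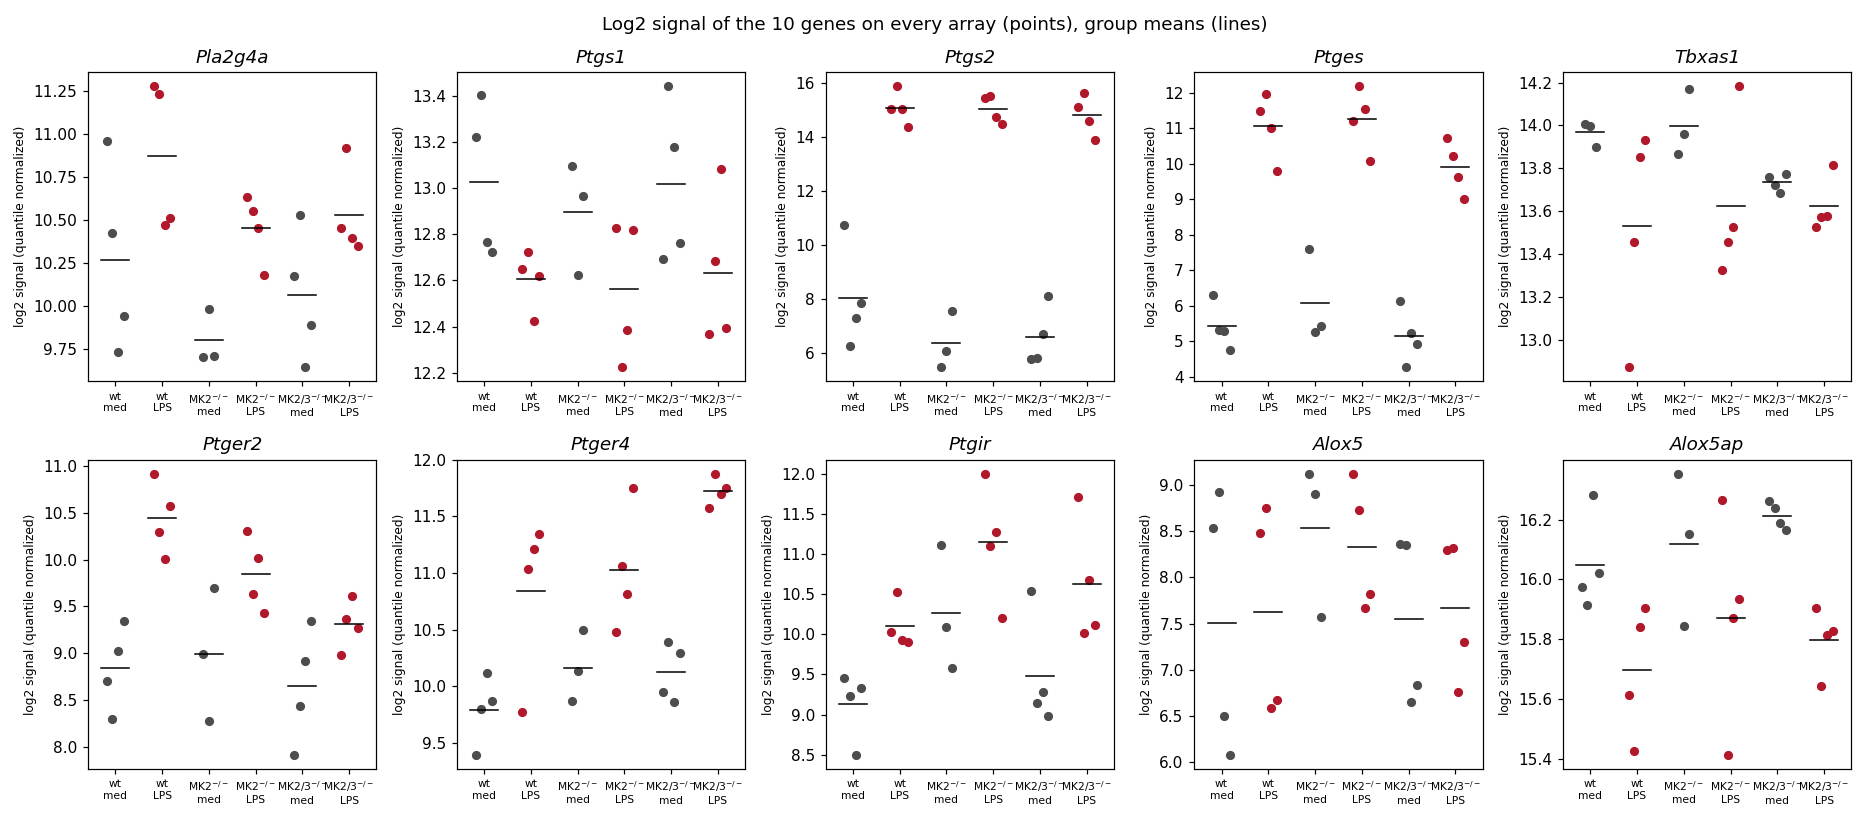
Log2 signals of the 10 genes on every array. Each point is 1 array and each line a group mean, grey for medium and red for LPS. Tbxas1 has 3 points for wt in medium because 1 array had no value. Ptges is shown for the probe with the larger LPS difference in wt. The axes differ between genes, and signals of different genes cannot be compared.

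Pla2g4a, the gene of arachidonate release, had higher means after LPS in all genotypes, but the differences did not pass in the limma fit over all arrays without a block. Its log2 signals in wt BMDM were 10.96, 10.43, 9.73 and 9.94 in medium and 11.28, 11.24, 10.47 and 10.51 after LPS. In MK2-/- BMDM they were 9.70, 9.98 and 9.71 in medium and 10.63, 10.55, 10.45 and 10.18 after LPS, with 4 of 4 LPS arrays above all medium arrays. The MK2/3-/- signals were 10.18, 10.53, 9.64 and 9.89 in medium and 10.45, 10.92, 10.39 and 10.35 after LPS, and in each genotype all 4 LPS arrays lay above the mean in medium. The differences were 0.61, 0.66 and 0.47 in wt, MK2-/- and MK2/3-/- BMDM (limma, adjusted p = 0.126, 0.118 and 0.212). With the culture as a block, Pla2g4a passed in wt (limma, 0.61, adjusted p = 0.0414), likewise for MK2-/- BMDM (0.66, adjusted p = 0.0433), with 4 of 4 cultures and 3 of 3 cultures higher after LPS. It also passed in MK2-/- BMDM with only the groups compared in the fit (limma, 0.66, adjusted p = 0.0345) and in wt without wt medium replicate 1 (0.84, adjusted p = 0.0245).

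Ptgs2 had the largest LPS difference of the 10 genes in every genotype. In wt BMDM its log2 signals were 10.74, 6.26, 7.30 and 7.85 in medium and 15.05, 15.90, 15.06 and 14.39 after LPS. In MK2-/- BMDM they were 5.49, 6.08 and 7.57 in medium and 15.45, 15.52, 14.77 and 14.51 after LPS. The MK2/3-/- arrays gave 5.80, 5.82, 6.70 and 8.11 in medium and 15.14, 15.63, 14.59 and 13.89 after LPS, and in no genotype did medium and LPS arrays overlap. Ptgs2 rose 134-fold in wt (limma, log2 difference 7.07, SE 0.74, adjusted p = 8.97e-07), 410-fold in MK2-/- (8.68, SE 0.80, adjusted p = 1.65e-07) and 295-fold in MK2/3-/- BMDM (8.20, SE 0.74, adjusted p = 8.32e-08), on 4 of 4 LPS arrays each. The wt array in medium with 10.74 lay apart from the other 3 of its group. Its culture gave the smallest rise of the wt cultures, 4.32. Without this array the rise in wt was 253-fold (limma, 7.98, adjusted p = 2.27e-08), and without MK2-/- medium replicate 3 the rise in MK2-/- BMDM was 622-fold (9.28, adjusted p = 6.44e-07). With normexp background on median spot signals it was 210-fold in MK2-/- and 162-fold in MK2/3-/- BMDM (limma, 7.71 and 7.34, adjusted p = 2.76e-08 and 1.27e-08). Over single cultures the rise ran from 4.32 to 9.65 in wt, 6.93 to 9.96 in MK2-/- and 5.77 to 9.81 in MK2/3-/- BMDM. In both knockout genotypes, but not in wt, cultures 1 and 2 were lower in medium and higher after LPS than the later cultures. This split was seen in the values and was not tested.

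Stroma markers moved in part with Ptgs2 on the arrays in medium and in part opposite to it after LPS. Of the 4 stroma markers 1, Col1a1, the brightest, was above background on all 23 arrays, Col3a1 on 20, Dcn on 16 and Pdgfra on 2. Their summed linear signal was 22162, 793, 5075 and 9991 on the wt arrays in medium, 405, 206 and 9089 on the MK2-/- arrays and 131, 568, 3012 and 18241 on the MK2/3-/- arrays, in the order of the Ptgs2 signals above. The array with the highest Ptgs2 signal in medium in each genotype also had the highest stroma signal. The MK2-/- arrays with sums of 405 and 206 had Ptgs2 in the opposite order. After LPS, the array with the highest stroma sum had the lowest Ptgs2 signal in MK2-/- (8510 and 14.51) and MK2/3-/- BMDM (13164 and 13.89). In wt after LPS the array with the lowest sum, 760, had the highest Ptgs2 signal, 15.90. The part of stroma markers in the Ptgs2 signals was not tested.

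Ptges gave opposite directions on its 2 probes. On the probe with the larger LPS difference in wt, the log2 signals in wt BMDM were 6.31, 5.31, 5.29 and 4.75 in medium and 11.49, 11.95, 11.01 and 9.80 after LPS. In MK2-/- BMDM they were 7.59, 5.24 and 5.42 in medium and 11.21, 12.19, 11.53 and 10.08 after LPS, and in MK2/3-/- BMDM 6.12, 4.27, 5.21 and 4.91 against 10.73, 10.21, 9.63 and 8.99. No arrays overlapped, and Ptges rose on this probe 50.1-fold in wt (limma, log2 difference 5.65, adjusted p = 8.99e-07), 36.1-fold in MK2-/- (5.17, adjusted p = 6.77e-06) and 27.1-fold in MK2/3-/- BMDM (4.76, adjusted p = 5.11e-06), on 4 of 4 LPS arrays each. Without MK2-/- medium replicate 1 the rise in MK2-/- BMDM was 60.5-fold (5.92, adjusted p = 3.19e-06). With normexp background on median spot signals the rise was 20.9-fold, 18.3-fold and 11.2-fold in wt, MK2-/- and MK2/3-/- BMDM, and with the mean of both probes 5.96-fold, 5.11-fold and 3.88-fold. The second probe, which carries the same transcript accession, fell after LPS by 0.50, 0.47 and 0.85 for wt, MK2-/- and MK2/3-/- BMDM (limma over all probes, adjusted p = 0.0113, 0.0259 and 6.48e-05), with 4 of 4 LPS arrays below all medium arrays each time. The rule fixed beforehand took the probe that LPS induced most in wt cells, so that the direction in wt follows in part from that choice. Which probe measures Ptges was not tested, and the rise of Ptges holds for 1 of its 2 probes.

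Ptgs1 and Tbxas1 did not pass in any genotype in the fits with and without the block. Ptgs1 had log2 signals of 13.22, 13.40, 12.77 and 12.72 in wt BMDM in medium and of 12.65, 12.73, 12.43 and 12.62 after LPS, with 3 of 4 LPS arrays below all medium arrays. Its differences were -0.42, -0.33 and -0.39 in wt, MK2-/- and MK2/3-/- BMDM (limma, adjusted p = 0.211, 0.381 and 0.210), with 4, 4 and 3 of 4 LPS arrays below the mean in medium. In the same order, Ptgs1 was higher after LPS in 0 of 4, 0 of 3 and 0 of 4 cultures. With the culture as a block its unadjusted p was 0.0259, 0.116 and 0.0401 (limma, adjusted p = 0.0969, 0.270 and 0.106). Tbxas1 had no value on 1 wt array, and its other wt signals were 14.01, 14.00 and 13.90 in medium and 12.88, 13.46, 13.85 and 13.93 after LPS. The Tbxas1 differences were -0.44, -0.38 and -0.11 (limma, adjusted p = 0.208, 0.278 and 0.765), with 4, 3 and 3 of 4 LPS arrays below the mean in medium. With normexp background on median spot signals Tbxas1 passed in wt (limma, -0.50, adjusted p = 0.0480). After scaling to the 75th percentile the Tbxas1 differences were -0.09 in wt (limma, adjusted p = 0.860), 0.0167 in MK2-/- and 0.278 in MK2/3-/- BMDM, and those of Ptgs1 -0.11, -0.05 and -0.09 in wt, MK2-/- and MK2/3-/- BMDM.

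**Figure D2:**
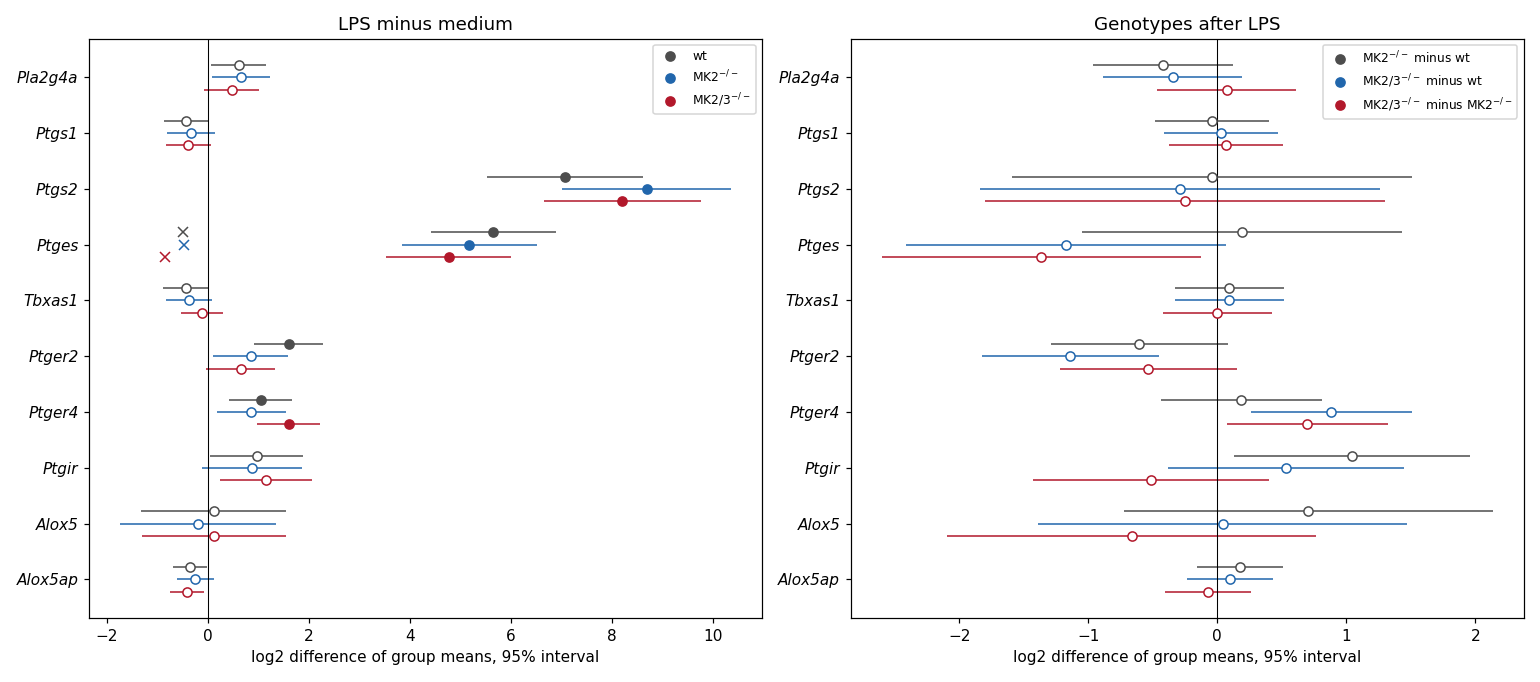
Log2 differences of the 10 genes with 95% intervals, LPS against medium on the left and between genotypes after LPS on the right. Filled points passed the adjustment over all genes and open points did not. Crosses on the left mark the second Ptges probe, drawn without its interval.

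Ptger2 and Ptger4, the receptors for prostaglandin E2, rose after LPS in wt BMDM. Ptger2 had log2 signals of 8.70, 8.30, 9.03 and 9.34 in medium and of 10.92, 10.29, 10.01 and 10.57 after LPS in wt BMDM, without overlap. It rose 3.04-fold there (limma, log2 difference 1.60, SE 0.33, adjusted p = 0.00146, 4 of 4 LPS arrays above all medium arrays). The MK2-/- signals were 8.99, 8.28 and 9.70 in medium and 10.30, 9.63, 10.02 and 9.43 after LPS, and the MK2/3-/- signals were 7.92, 8.44, 8.92 and 9.35 against 8.99, 9.37, 9.61 and 9.27, with overlap in both. The differences were 0.85 and 0.65 for MK2-/- and MK2/3-/- BMDM (limma, adjusted p = 0.109 and 0.167), with 2 of 4 LPS arrays above all medium arrays in each. Without MK2-/- medium replicate 3, Ptger2 passed in MK2-/- BMDM (limma, 1.21, adjusted p = 0.0347).

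Ptger4 passed in wt and in MK2/3-/- BMDM. Its log2 signals in wt BMDM were 9.39, 9.80, 10.11 and 9.87 in medium and 9.77, 11.03, 11.21 and 11.35 after LPS, and 3 of 4 LPS arrays lay above all medium arrays. In MK2-/- BMDM they were 9.87, 10.13 and 10.49 in medium and 10.48, 11.06, 10.82 and 11.75 after LPS. The MK2/3-/- signals were 9.94, 10.39, 9.86 and 10.30 in medium and 11.57, 11.88, 11.70 and 11.75 after LPS, without overlap. Ptger4 rose 2.07-fold in wt (limma, log2 difference 1.05, adjusted p = 0.0184, 3 of 4 LPS arrays) and 3.03-fold in MK2/3-/- BMDM (1.60, adjusted p = 0.000427, 4 of 4 LPS arrays). The wt result depended on single arrays, since it did not pass without wt LPS replicate 2, 3 or 4 (limma, 0.98, 0.92 and 0.88, adjusted p = 0.0566, 0.0639 and 0.0605) or wt medium replicate 1 (0.92, adjusted p = 0.0632), nor with only the groups compared in the fit (1.05, adjusted p = 0.108). In MK2-/- BMDM the difference was 0.86 (limma, adjusted p = 0.0714, 3 of 4 LPS arrays above all medium arrays), and with the culture as a block it was 0.88 (adjusted p = 0.0221, 3 of 3 cultures higher). It passed there also with dim probes removed (limma, 0.86, adjusted p = 0.0455), without wt LPS replicate 1 (0.86, adjusted p = 0.0176) and without MK2-/- LPS replicate 1 (1.04, adjusted p = 0.0359).

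Ptgir, the prostacyclin receptor, had higher means after LPS and did not pass in the limma fit over all arrays without a block. In wt BMDM its log2 signals were 9.46, 9.23, 8.50 and 9.33 in medium and 10.03, 10.53, 9.93 and 9.90 after LPS, without overlap. The MK2-/- arrays gave 11.12, 10.09 and 9.59 in medium and 12.00, 11.11, 11.27 and 10.20 after LPS, and the MK2/3-/- arrays 10.54, 9.14, 9.28 and 8.98 against 11.71, 10.02, 10.67 and 10.12. The differences were 0.97, 0.88 and 1.15 in wt, MK2-/- and MK2/3-/- BMDM (limma, adjusted p = 0.157, 0.235 and 0.0635), with 4, 2 and 2 of 4 LPS arrays above all medium arrays. With the culture as a block Ptgir passed in MK2/3-/- BMDM (limma, 1.15, adjusted p = 0.0165, 4 of 4 cultures higher), but not in wt (0.97, adjusted p = 0.0545). Without the block it passed in wt with only the groups compared in the fit (limma, 0.97, adjusted p = 0.0406) and in MK2/3-/- BMDM with dim probes removed (1.15, adjusted p = 0.0395). In MK2/3-/- BMDM it passed also without MK2-/- LPS replicate 4 (limma, 1.15, adjusted p = 0.0485), MK2/3-/- LPS replicate 2 (1.35, adjusted p = 0.0483), MK2/3-/- LPS replicate 4 (1.32, adjusted p = 0.0470) or MK2/3-/- medium replicate 1 (2.82-fold, adjusted p = 0.0152).

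Alox5, the gene of 5-lipoxygenase, had signals that were further apart between cultures than between the means of medium and LPS. In wt BMDM its log2 signals were 8.53, 8.92, 6.50 and 6.08 in medium and 8.48, 8.75, 6.59 and 6.67 after LPS. The MK2-/- arrays gave 9.12, 8.90 and 7.57 in medium and 9.11, 8.73, 7.66 and 7.82 after LPS, and the MK2/3-/- arrays 8.37, 8.35, 6.65 and 6.83 against 8.29, 8.32, 6.76 and 7.30. In every genotype and condition the arrays of cultures 1 and 2 lay above those of the later cultures, a split that was noticed after the values were seen and was not tested. The LPS differences of Alox5 were 0.12, -0.20 and 0.12 in wt, MK2-/- and MK2/3-/- BMDM (limma, adjusted p = 0.964, 0.920 and 0.939), with 2 of 4 LPS arrays on either side of the mean in medium. Their 95% intervals reached from -1.31 to 1.54, from -1.74 to 1.35 and from -1.31 to 1.55 for wt, MK2-/- and MK2/3-/- BMDM. These differences and intervals did not pair the cultures, and the MK2-/- medium group lacked 1 of the later cultures. Within cultures the LPS difference ran from -0.17 to 0.59 in wt, from -0.17 to 0.25 in MK2-/- and from -0.07 to 0.47 in MK2/3-/- BMDM. It was higher after LPS in 2 of 4, 1 of 3 and 2 of 4 cultures.

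Marker sums of other cells moved with this split of the cultures. The summed signal of the 4 dendritic cell markers was higher in cultures 1 and 2 than in all later cultures in 5 of 6 groups, as were those of the eosinophil and endothelial markers, while the stroma sum was lower in 4 of 6, the knockout groups. In medium the dendritic cell sum, with Itgax as brightest gene, was 3788, 8302, 1821 and 2248 in wt, 5233, 10505 and 4734 in MK2-/- and 12547, 12536, 3899 and 4632 in MK2/3-/- BMDM. After LPS it was 5323, 10337, 4066 and 3537 in wt, 6475, 11157, 6295 and 7461 in MK2-/- and 13273, 15605, 7120 and 6816 in MK2/3-/- BMDM, each in the order of the Alox5 signals. Of the dendritic cell markers Itgax and Flt3 were above background on all 23 arrays and Zbtb46 and Ccr7 on 22. In the eosinophil list Siglecf was above background on 23 arrays, Prg2 on 3 and Epx on 0. In the endothelial list Kdr and Pecam1 were above it on 23 and Cdh5 on 9. The sums thus rest on few genes, and the part of any of these markers in the Alox5 signals was not tested.

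Alox5ap, which encodes the activating protein of 5-lipoxygenase, had lower means after LPS but did not pass in the limma fit over all arrays without a block. Its log2 signals in wt BMDM were 15.98, 15.91, 16.28 and 16.02 in medium and 15.62, 15.43, 15.84 and 15.90 after LPS. In MK2-/- BMDM they were 16.35, 15.85 and 16.15 in medium and 16.27, 15.42, 15.87 and 15.93 after LPS. The MK2/3-/- arrays gave 16.26, 16.24, 16.19 and 16.17 in medium and 15.91, 15.65, 15.82 and 15.83 after LPS, and medium and LPS arrays did not overlap in wt and MK2/3-/- BMDM. The differences were -0.35, -0.25 and -0.42 in wt, MK2-/- and MK2/3-/- BMDM (limma, adjusted p = 0.158, 0.390 and 0.0643), with 4, 1 and 4 of 4 LPS arrays below all medium arrays. With the culture as a block Alox5ap fell in MK2/3-/- BMDM (limma, -0.42, adjusted p = 0.0202, 4 of 4 cultures lower). It passed there without the block with normexp background on median spot signals (limma, -0.47, adjusted p = 0.0292), dim probes removed (-0.42, adjusted p = 0.0429), only the groups compared in the fit (-0.42, adjusted p = 0.0352) or low signals set to a floor (-0.42, adjusted p = 0.0487). So it did without MK2-/- LPS replicate 1 or 2 (limma, -0.41 and -0.42, adjusted p = 0.0425 and 0.0331). Scaled to the 75th percentile, the Alox5ap differences were -0.00204, 0.16 and -0.04 in wt, MK2-/- and MK2/3-/- BMDM (limma, adjusted p = 0.996, 0.641 and 0.930).

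Between genotypes, none of the 10 genes passed, in fits that did not pair replicate numbers across genotypes. The study's methods give 4 independent experiments. Whether a replicate number marks the same experiment in every genotype was not tested. After LPS, limma called 0 of 10 for MK2-/- against wt, MK2/3-/- against wt and MK2/3-/- against MK2-/- BMDM, while 0.0308%, 1.64% and 0.161% of all genes passed, and the counts at an unadjusted p below 0.05 were 1, 2 and 2, against 7.5%, 13.6% and 7.91% of all genes. Counts by the test of the study's methods stand in the closing section. In medium the limma counts were 0, 0 and 0 (0.00769%, 0.0769% and 0.0461% of all genes), with 1, 0 and 0 unadjusted (3.42%, 4.63% and 3.57%).

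After LPS, MK2/3-/- and wt arrays separated for the prostaglandin E2 receptors. Arrays without overlap between genotypes after LPS were found for 0 of 10 genes for MK2-/- against wt (3.72% of all genes), for 2 of 10, Ptger2 and Ptger4, for MK2/3-/- against wt (5.80%) and for 0 of 10 for MK2/3-/- against MK2-/- BMDM (5.13%). Ptger2 was lower in all 4 MK2/3-/- arrays than in all wt arrays, by 1.14 (limma, adjusted p = 0.0934), and Ptger4 was higher in all 4, by 0.88 (limma, adjusted p = 0.167). Against MK2-/- BMDM, the MK2/3-/- difference after LPS was 0.70 for Ptger4 (limma, adjusted p = 0.553, 4 of 4 arrays above the MK2-/- mean) and -1.36 for Ptges (limma, adjusted p = 0.564, 4 of 4 arrays below it). The second Ptges probe differed by -0.26 in this comparison (limma over all probes, adjusted p = 0.650).

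In medium, arrays without overlap were about as frequent among the 10 genes as among all genes. They were found for 1 gene, Ptgir, for MK2-/- against wt (7.02% of all genes), for 0 for MK2/3-/- against wt (4.05%) and for 1, Tbxas1, for MK2/3-/- against MK2-/- BMDM (6.43%). Ptgir was higher in 3 of 3 MK2-/- arrays than in all wt arrays, by 1.14 (limma, adjusted p = 1.00), and after LPS the difference was 1.05 (limma, adjusted p = 0.628, 4 of 4 arrays above the wt mean). Tbxas1 signals were 13.76, 13.72, 13.69 and 13.77 in MK2/3-/- and 13.87, 13.96 and 14.17 in MK2-/- BMDM, a difference of -0.26 (limma, adjusted p = 1.00). The same MK2/3-/- arrays lay below the 3 measured wt arrays by 0.23 (limma, adjusted p = 1.00), a comparison that the overlap count leaves out because of the missing wt value. Each slide held arrays of 1 genotype, so that genotype and slide cannot be told apart.

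The LPS response itself was compared between genotypes for each gene. Limma called 0 of 10 for MK2-/- against wt, MK2/3-/- against wt and MK2/3-/- against MK2-/- BMDM (0.00384%, 0.0115% and 0% of all genes), and 0, 0 and 0 at an unadjusted p below 0.05 (1.91%, 4.54% and 2.88%). For Ptger2, the response was smaller by 0.75 in MK2-/- (95% interval -1.76 to 0.26) and by 0.95 in MK2/3-/- than in wt BMDM (-1.92 to 0.02), so that passing in wt alone does not show a difference between genotypes. With the culture as a block the counts at an unadjusted p below 0.05 were 0, 1 and 0 (3.47%, 7.13% and 4.5% of all genes). The 1 gene was Ptger2 in MK2/3-/- against wt BMDM, with a difference in response of -0.95 (95% interval -1.81 to -0.09, limma, adjusted p = 0.634). In cultures 1 to 4 the Ptger2 response was 2.21, 1.99, 0.98 and 1.22 in wt. In MK2/3-/- BMDM it was 1.07, 0.93, 0.69 and -0.08. A pairing of these cultures across genotypes was not tested. For Ptger4 the response differed by -0.19 in MK2-/- (95% interval -1.11 to 0.73) and by 0.55 in MK2/3-/- from wt (-0.33 to 1.44), and by 0.74 between MK2/3-/- and MK2-/- BMDM (-0.18 to 1.66). For Ptgs2 the differences to wt were 1.61 in MK2-/- (95% interval -0.67 to 3.90) and 1.14 in MK2/3-/- BMDM (-1.05 to 3.33), and for Ptges -0.48 (-2.30 to 1.35) and -0.89 (-2.64 to 0.87). Between MK2/3-/- and MK2-/- BMDM the response differed by -0.48 for Ptgs2, -0.41 for Ptges and -0.20 for Ptger2. The adjusted p by limma without the block was 1.00 for each of these. On the second Ptges probe the response differed by 0.03, -0.35 and -0.38 for MK2-/- against wt, MK2/3-/- against wt and MK2/3-/- against MK2-/- BMDM (limma over all probes, adjusted p = 1.00 each).

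Among 53 further genes of arachidonate release, prostanoid, leukotriene and oxylipin pathways, 11.3%, 13.2% and 22.6% passed for LPS in wt, MK2-/- and MK2/3-/- BMDM, against 17.1%, 18.6% and 24.9% of all genes. In wt BMDM 4 rose and 2 fell, in MK2-/- BMDM 5 rose and 2 fell, and in MK2/3-/- BMDM 10 rose and 2 fell, among them genes with few signals above background. Abcc1, which exports leukotriene C4, rose by 1.16, 1.30 and 1.40 in wt, MK2-/- and MK2/3-/- BMDM (limma, adjusted p = 0.000125, 7.85e-05 and 9.61e-06, 4 of 4 LPS arrays each). The cytosolic prostaglandin E synthase gene Ptges3 rose by 0.71, 0.77 and 0.98 (limma, adjusted p = 0.00524, 0.00470 and 0.000199, 4 of 4 LPS arrays each), and Acsl4, which activates arachidonate, by 0.67, 0.49 and 0.52 (limma, adjusted p = 0.00138, 0.0234 and 0.00688, 4 of 4 each). Ptges2, a membrane-associated prostaglandin E synthase, fell by 0.49, 0.64 and 0.72 (limma, adjusted p = 0.0386, 0.0115 and 0.00192, 4 of 4 each). The lysosomal phospholipase gene Pla2g15 fell by 1.36, 1.36 and 1.03 (limma, adjusted p = 0.0116, 0.0183 and 0.0431), with 3, 3 and 4 of 4 LPS arrays below all medium arrays. With the probe of highest mean signal, however, Ptges3 differed by 0.21 and 0.30 for wt and MK2/3-/- BMDM (limma, adjusted p = 0.343 and 0.113). After scaling to the 75th percentile Pla2g15 did not pass for MK2-/- and MK2/3-/- BMDM (limma, -1.10 and -0.74, adjusted p = 0.0538 and 0.161), nor Ptges2 in wt (-0.43, adjusted p = 0.128). With normexp background on median spot signals, Ptges2 in wt (limma, -0.37, adjusted p = 0.0599) and Pla2g15 in MK2/3-/- BMDM (-0.88, adjusted p = 0.0749) did not pass. Single arrays also ended calls. Ptges2 in wt did not pass without wt LPS replicate 2 or 3 or wt medium replicate 1, 3 or 4 (limma, -0.50 to -0.36, adjusted p up to 0.158), nor in MK2-/- BMDM without MK2-/- medium replicate 3 (-0.52, adjusted p = 0.0792). Acsl4 in MK2-/- BMDM did not pass without MK2-/- LPS replicate 2 or 4 or MK2-/- medium replicate 1 or 3 (limma, 0.41 to 0.50, adjusted p up to 0.121). Pla2g15 did not pass in wt without wt LPS replicate 1 (limma, -1.05, adjusted p = 0.0505) and in MK2-/- BMDM without MK2-/- LPS replicate 1 or 2 or MK2-/- medium replicate 3 (-1.26 to -1.12, adjusted p up to 0.101). In MK2/3-/- BMDM Pla2g15 did not pass without any 1 of 9 arrays, MK2/3-/- LPS replicates 1 to 3, MK2/3-/- medium replicates 2 to 4, wt medium replicate 4, MK2-/- LPS replicate 3 and MK2-/- medium replicate 2 (limma, -1.03 to -0.92, adjusted p up to 0.112). With only the groups compared in the fit, Ptges2 and Pla2g15 in wt (limma, adjusted p = 0.0917 and 0.0751) and Acsl4 and Pla2g15 in MK2-/- BMDM (adjusted p = 0.0968 and 0.0790) did not pass.

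Some of these genes passed in 1 genotype. Aloxe3 rose in wt, with a fitted difference of 3.04 (limma, adjusted p = 0.0263, 4 of 4 LPS arrays). Its medium signals were not above background, so that the rise was at least 6.02-fold in the main processing with all arrays. This bound holds for that setting only, since the fitted rise was 4.41-fold without wt LPS replicate 3. With normexp background on median spot signals it was 1.96-fold. The leukotriene receptor gene Cysltr2 rose in MK2/3-/- BMDM by 2.68 (limma, adjusted p = 0.00844, 4 of 4 LPS arrays), as did Lpcat3 by 0.52 (adjusted p = 0.00307, 4 of 4) and Alox12b by 0.76 (adjusted p = 0.0307, 3 of 4). With normexp background on median spot signals and an offset of 50, Aloxe3 had a difference of 0.97 (limma, adjusted p = 0.0532), Cysltr2 one of 1.26 (adjusted p = 0.00441) and Alox12b one of 0.25 (adjusted p = 0.0839). Alox12b also did not pass with the mean of its probes (limma, 0.13, adjusted p = 0.795) or after scaling to the 75th percentile (0.69, adjusted p = 0.0984). In the comparison of the LPS response between genotypes 0 of the 53 genes passed. Of all comparisons between genotypes, 1 gene passed, the lysophospholipid acyltransferase gene Lpcat2, which was higher by 1.86 in MK2/3-/- than in wt BMDM after LPS (limma, adjusted p = 0.0408, 4 of 4 arrays above all wt arrays). With only these groups in the fit its adjusted p by limma was 0.177. Lpcat2 did not pass without any 1 of 10 arrays, wt LPS replicates 1 and 4, wt medium replicates 3 and 4, MK2-/- medium replicate 2, MK2/3-/- LPS replicates 1 to 3 and MK2/3-/- medium replicates 3 and 4 (limma, 1.56 to 1.96, adjusted p up to 0.162). Aloxe3 did not pass without wt LPS replicate 3 or 4 or wt medium replicate 1 or 4 (limma, 2.14 to 3.01, adjusted p up to 0.111), and Alox12b without MK2/3-/- LPS replicate 1, 2 or 3 or MK2/3-/- medium replicate 3 or 4 (0.60 to 0.73, adjusted p up to 0.112). Without wt LPS replicate 1, Aloxe3 passed with a larger difference (limma, 3.77, adjusted p = 0.00682). With only the groups compared in the fit, Aloxe3 and Alox12b did not pass (limma, adjusted p = 0.101 and 0.162).

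The other pathway genes that passed for LPS lay outside the rule for naming and were looked up after the values were seen. In MK2-/- BMDM they were Alox12 and the prostaglandin D2 receptor gene Ptgdr2 (limma, adjusted p = 0.00707 and 0.0399, 4 of 4 LPS arrays above all medium arrays each). Alox12 was above background on 2 of 4 LPS and 0 of 3 medium arrays and Ptgdr2 on 3 of 4 and 1 of 3, so that no size is given for them. Ptgdr2 did not pass under 7 of 34 alternatives (adjusted p up to 0.161), and Alox12 under 1 of 33 (adjusted p up to 0.0639). In MK2/3-/- BMDM Mboat7 was higher by 0.45 (limma, adjusted p = 0.0261, 3 of 4 LPS arrays above all medium arrays) with signals above background on all arrays of both groups, but did not pass under 8 of 34 alternatives. Ptger1, Alox12 and Ptgds also passed there, but were above background on 2, 1 and 1 of 4 LPS and 1, 1 and 2 of 4 medium arrays, so that no size is given for them. They did not pass under 4 of 34, 6 of 33 and 18 of 34 alternatives.

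Genes with group means most like those of the 4 genes that rose in wt were sought among 15775 genes. For Ptgs2 they were the chemokine gene Ccl2, the endothelin gene Edn1 and Rnd1, with root mean square distances of 0.32, 0.38 and 0.42 on the log2 scale. For the chosen probe of Ptges they were Tmem200b, Lad1 and Gadd45b (0.37, 0.37 and 0.39). Ptger2 lay closest to Gpr45, the transcript XM_001477447 and Cav2 (0.15, 0.16 and 0.16), and Ptger4 to Rps6ka5, Trip10 and Trim30a (0.08, 0.09 and 0.09). Ccl2 rose by 7.78, 8.65 and 8.57 in wt, MK2-/- and MK2/3-/- BMDM (limma, adjusted p = 1.79e-08, 1.30e-08 and 3.81e-09). With the distance taken over the 23 arrays, Ptgs2 and Ptges kept 1 of 3 genes each, Edn1 and Tmem200b, and Ptger2 and Ptger4 kept 0.

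Promoter sequences of the mouse build GRCm38.p6 were available for 9 of the 10 genes, all except Alox5ap. In the 250 bases before the start, the GC box GGGCGG was present in 5 genes, Ptgs2, Ptges, Ptger4, Ptgir and Alox5, and in 32.7% of 32851 promoters. The C/EBP motif TTNCGNAA was found in Ptgs2 (2.04% of promoters), the AP-1 motif TGANTCA in Tbxas1 (6.75%) and the TATA box letters TATAAA in Pla2g4a and Tbxas1 (12.4%). Counted from the start, TATAAA lay at -200 to -195 in Pla2g4a and at -13 to -8 and -11 to -6 in Tbxas1. Whether these matches act as TATA boxes was not tested. The CRE (TGACGTCA, 1.55%), CRE core (TGACG, 17.8%), E-box (CACGTG, 6.02%) and kB motif (3.90%) matched 0 of the 9 genes in this window, by exact match on either strand. Among the 50 bases after the Ptgs2 start a CRE core lay at 14 to 18 and an E-box at 17 to 22, in a window added after the data were seen. No factor binding was measured.

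The 250 bases before the start of Ptgs2 on chromosome 1 (plus strand, 150099781 to 150100030), with the GC box and the C/EBP motif in capitals, read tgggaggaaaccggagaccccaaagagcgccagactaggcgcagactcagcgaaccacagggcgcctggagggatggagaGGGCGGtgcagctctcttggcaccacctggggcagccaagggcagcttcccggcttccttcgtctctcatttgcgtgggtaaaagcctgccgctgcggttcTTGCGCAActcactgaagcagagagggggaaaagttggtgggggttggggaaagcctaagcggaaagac. For Ptges on chromosome 2 (minus strand, 30903298 to 30903547), with 2 GC boxes in capitals, they read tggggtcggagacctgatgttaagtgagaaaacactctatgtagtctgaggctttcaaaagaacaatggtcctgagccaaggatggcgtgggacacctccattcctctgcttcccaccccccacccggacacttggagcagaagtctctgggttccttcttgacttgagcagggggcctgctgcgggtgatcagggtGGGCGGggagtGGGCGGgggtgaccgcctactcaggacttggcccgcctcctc. For Ptger2 on chromosome 14 (plus strand, 44987861 to 44988110), without a match, they read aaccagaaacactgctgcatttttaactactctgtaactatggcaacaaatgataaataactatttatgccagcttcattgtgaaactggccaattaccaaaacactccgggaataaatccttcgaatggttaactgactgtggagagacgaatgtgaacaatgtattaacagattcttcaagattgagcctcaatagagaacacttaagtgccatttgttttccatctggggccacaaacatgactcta. For Ptger4 on chromosome 15 (minus strand, 5244188 to 5244437), with 4 GC boxes on the other strand in capitals, 2 of them sharing a base, they read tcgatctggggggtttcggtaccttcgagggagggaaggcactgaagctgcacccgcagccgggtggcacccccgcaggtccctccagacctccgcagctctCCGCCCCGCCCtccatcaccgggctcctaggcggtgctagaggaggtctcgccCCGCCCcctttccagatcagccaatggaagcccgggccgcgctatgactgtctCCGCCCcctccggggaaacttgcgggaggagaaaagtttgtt.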

How the data were processed

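Transcripts were measured on 23 Agilent 1-colour arrays of BMDM, and each array's scanner file was read. The authors extracted the signals with Agilent Feature Extraction 11.0.1.1, and the deposited files hold background-corrected intensity values on the linear scale. The deposited table of normalized values holds log2 ratios to each probe's median, used only as an alternative. Of 62976 spots per array, 59305 were not controls, and they gave 55681 probes after log2 values of spots of the same probe were averaged, without spots that the scanner software marked as outliers. 258 of 1280663 probe values were missing and 0 spots were saturated. Each group had a median of 50.3% to 58.2% of probes well above background, and on MK2/3-/- arrays in medium the share ranged from 47.5% to 69.1%. Signals of the 10 genes were well above background on every array with a value.

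Log2 signals were quantile normalized in R 4.3.3 (limma 3.58.1, data.table version 1.17.8); matplotlib 3.10.9 under Python 3.11.15 made the plots. Grouping probes by RefSeq or GenBank accession gave 26014 genes, with the probe of highest LPS induction in wt taken for each gene and no filter on dim probes; 9 of the 10 genes have 1 probe. A limma fit with 1 mean per group (lmFit, eBayes) tested LPS against medium in each genotype, the genotypes in each condition and the differences in LPS response. Adjusted p is Benjamini-Hochberg over all genes, with a threshold of 0.05. The code was tested on simulated data. Scaling, background (normexp, on median in place of mean spot signals), probe choice, filter, test, block and left-out arrays were varied.

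Medium and LPS arrays with the same replicate number and mouse age in the labels were taken as 1 bone marrow culture; the labels do not state a shared animal. The third MK2-/- medium array was put with culture 4 by its age. Over 25902 genes the 11 pairs correlated by 0.0657 to 0.566 in their deviations from the group means, 10 of them above 0.1, and over 12569 genes above background on all arrays by 0.359 to 0.776. The blocked fit (duplicateCorrelation, consensus 0.241) is given beside results it changed.

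The rule for named genes was written before the values were computed: the 10 genes, Mapkapk2 and Mapkapk3, for LPS up to 8 further pathway genes per genotype by largest difference among those that passed and were above background on every array of the medium or LPS group, every pathway gene that passed between genotypes, the 3 closest profiles of each gene that rose in wt, and cell type markers. The 10 genes and the lists were chosen with earlier results of these data known. Single differences between genotypes are given where the unadjusted p was below 0.05 or arrays did not overlap, and for the LPS response of genes that passed for LPS; this was settled after the values were seen. Cd68 and Ly6g were not measured. 2 arrays lacked the scanner software's background gradient fit and were kept.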

Additional observations from a re-analysis of the deposited data

Results flagged for a closer look

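No value of the 10 genes met a rule fixed for a closer look: in 49 groups of 4 arrays 0 outliers were found, and the LPS response of 0 genes differed between genotypes by the test or had opposite signs in all cultures of 2 genotypes. The 2 Ptges probes that moved in opposite directions after LPS lie outside these rules and are described in the report.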

How the results depend on the processing

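Of the LPS results, Ptgs2 in all genotypes, Ptger2 in wt and Ptger4 in MK2/3-/- BMDM kept their direction and passed under all 34 alternatives. Over these, the difference ranged from 6.49 to 7.98, 7.71 to 9.28 and 7.34 to 8.71 for Ptgs2 in wt, MK2-/- and MK2/3-/- BMDM, from 1.40 to 1.77 for Ptger2 in wt, and from 1.46 to 1.74 for Ptger4 in MK2/3-/- BMDM. Ptger4 in wt kept its direction (0.88 to 1.41) but did not pass under 6 alternatives: with only the groups compared in the fit (limma, 1.05, adjusted p = 0.108), with the methods' t-test (1.05, adjusted p = 0.154) and without wt LPS replicate 2, 3 or 4 or wt medium replicate 1. The cause was not tested.

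With the probe of highest mean signal, the Ptges differences were -0.50, -0.47 and -0.85 for wt, MK2-/- and MK2/3-/- BMDM, and its response differed by 0.0317 between MK2-/- and wt, because this choice takes the second probe. Scaling to the 75th percentile gave 0.16 for Alox5ap and 0.0167 for Tbxas1 in MK2-/- BMDM and 0.278 for Tbxas1 in MK2/3-/- BMDM. It also moved the median of all genes to 0.15, 0.20 and 0.06 in wt, MK2-/- and MK2/3-/- BMDM, and the share of higher calls in wt from 48.2% to 58.1%. Leaving out 1 array at a time turned the sign of Alox5 in wt (-0.36 to 0.59), MK2-/- (-0.68 to 0.10) and MK2/3-/- BMDM (-0.18 to 0.42). It also did so for the difference in response of Ptges between MK2-/- and wt (-0.90 to 0.28), and between MK2/3-/- and MK2-/- BMDM for Ptges (-1.17 to 0.00641), Ptger2 (-0.55 to 0.16) and Ptgs2 (-1.07 to 0.0243). The cause was not tested.

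With the culture as a replicate block, 4 of the 10 genes passed in MK2-/- and 5 in MK2/3-/- BMDM, and the pairing changed no call of the 10 genes beyond Pla2g4a, Ptger4, Ptgir and Alox5ap as given in the report. With dim probes removed 5 passed in MK2/3-/- BMDM. By the methods' t-test at an unadjusted p below 0.05, 1 gene passed in each of the 3 comparisons after LPS (5.39%, 9.3% and 6.57% of all genes) and 1 each for MK2/3-/- against wt and MK2/3-/- against MK2-/- BMDM in medium (4.91% and 4.29%). Leaving out arrays gave 3 to 4, 2 to 3 and 3 to 4 genes for LPS. Under the methods' t-test with adjustment Pla2g4a in MK2-/- (adjusted p = 0.0421) and Alox5ap in MK2/3-/- BMDM (adjusted p = 0.00745) passed for LPS, while Ptges3, Pla2g15 and Acsl4 in MK2-/- BMDM (adjusted p = 0.0524, 0.130 and 0.0971), Aloxe3, Pla2g15 and Ptges2 in wt (0.154, 0.1198 and 0.101) and Alox12b in MK2/3-/- BMDM (0.206) did not. Mapkapk2 did not pass against wt in MK2-/- and MK2/3-/- BMDM in medium (adjusted p = 0.431 and 0.0601) or after LPS (0.137 and 0.118), nor Mapkapk3 in MK2/3-/- BMDM in medium (0.119), nor Lpcat2 between MK2/3-/- and wt (1.86, adjusted p = 0.270). Further genotype differences of the 10 genes, 70 in all, are not given singly: 43 changed sign under some alternative (largest size 0.95) and 0 passed. They were set apart after the values were seen. Motif matches in the promoters numbered 15, with 11 in 100 bases and 17 when the 50 bases after the start were added. Slide could not be used as a block between genotypes. Of 2686 values of single differences 2543 kept direction and call, 86 lost and 35 gained the call, and 22 changed sign. Many of these values could hardly move. Of the 34 alternatives, 23 left out 1 array, which often lay outside the groups compared. The choice of probe cannot change genes with 1 probe. The tally is therefore no measure of how firm a result is. Signals near background limited Aloxe3 among the pathway genes named by the rule, and Alox12, Ptgdr2, Ptger1 and Ptgds among those named outside it.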
